A study of Mus musculus with 4 samples.

Results

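The Foxp genes, Foxp1, Foxp2, Foxp3 and Foxp4, encode forkhead transcription factors, and their RNA was followed in mouse embryonic stem cells. All 4 genes were found by their Entrez gene numbers among the 24116 genes of the count table, and no other gene was added. The family was chosen by measured values of the same contrast, in which Foxp4 counts were known to be higher in the libraries labelled Kdm2a knockout. The knockout against wild-type values of the 4 genes are therefore a description, without a test, and support nothing further.

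RNA was sequenced from 2 wild-type libraries and 2 libraries titled Kdm2a knockout, all of the strain labelled 12910la and grown on gelatin in serum medium with LIF. The line labelled knockout was derived by transfecting a Kdm2a guide RNA, sorting GFP-positive cells and expanding 1 clone, so an effect of Kdm2a and a trait of that clone cannot be told apart. Their titles say knockout, but their genotype label describes Kdm2a as knocked down. No label says whether the libraries of a group were separate cultures, so the spread between them may be technical.

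FOXP proteins bind DNA through a forkhead domain and pair with themselves or with each other through a leucine zipper that lies next to a zinc finger. They mostly repress transcription, some of them together with corepressors such as CTBP1 and the NuRD complex. Foxp1 works in many tissues, and in embryonic stem cells an alternative form of it is known to favour pluripotency genes. Foxp2 is known for the development of vocal and motor circuits, Foxp3 specifies regulatory T cells, and Foxp4 acts in lung, gut, heart and brain. KDM2A, the product of the targeted gene, removes methyl groups from lysine 36 of histone H3 and is drawn to unmethylated CpG islands by its CXXC domain.

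The 4 genes share short stretches of coding sequence. A block that encodes part of the zinc finger is shown because it bears on whether a read can be assigned to 1 member. Capitals mark the bases that are identical in all 4 genes, which are 33 of 60 (55.0%). Positions in the coding sequence, counted from 1 at its first base, are 1000 to 1059 in Foxp1, 1033 to 1092 in Foxp2, 586 to 645 in Foxp3 and 937 to 996 in Foxp4.
Foxp1: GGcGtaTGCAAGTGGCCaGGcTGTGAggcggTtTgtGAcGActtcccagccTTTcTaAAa
Foxp2: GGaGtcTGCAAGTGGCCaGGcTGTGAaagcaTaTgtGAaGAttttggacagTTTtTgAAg
Foxp3: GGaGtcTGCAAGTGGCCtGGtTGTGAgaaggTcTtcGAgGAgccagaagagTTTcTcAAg
Foxp4: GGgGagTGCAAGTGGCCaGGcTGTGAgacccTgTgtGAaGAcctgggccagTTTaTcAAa

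The longest run shared by all 4 coding sequences was 11 bases, TGCAAGTGGCC, in this zinc finger block. Between pairs, the aligned coding sequences were 63.9% (Foxp2 and Foxp3) to 71.8% (Foxp1 and Foxp2) identical. Reads were 50 bases long, per the labels' protocols, and no 50-base word of a Foxp transcript occurred in a transcript of another Foxp gene in the GENCODE annotation. An exact read of that length could thus not be shared between members.

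Overlap with other genes was a different matter, and it differed by member. Of the 50-base words of each gene, 0 of 5019 in Foxp4 occurred in any other gene. In Foxp1 it was 342 of 14132 (2.42%), mostly with the predicted genes Gm20696 and Gm49348, and in Foxp2 54 of 16641 (0.324%). In Foxp3 it was 1109 of 4803 (23.1%). The noncoding RNA Flicr, which lies on the same strand, held 706 of these words, and Ccdc22, which runs on the opposite strand, held 403. Ppp1r3f (217) and the predicted gene Gm36995 (188), also on the opposite strand, shared words with GENCODE transcripts of Foxp3. The Foxp4 counts were therefore the easiest of the 4 to assign, and the Foxp3 counts the hardest.

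Total counts were 18844246 to 19056529 per library, and 14194 genes had enough counts to be tested. With edgeR's quasi-likelihood test 0 genes passed an adjusted p of 0.05, and 242 had an unadjusted p under 0.05 (126 higher and 116 lower). DESeq2 called 2 genes, both lower, and limma-voom called 0. The groups did not stand apart as wholes. Wild type 1 correlated more closely with knockout 1 (Pearson r = 0.984 across genes) than with wild type 2 (r = 0.968). The 2 knockout libraries correlated at r = 0.952. Each was closer to wild type 2, with r = 0.978 for knockout 1 and r = 0.959 for knockout 2. The lowest correlation of knockout 2 was with wild type 1 (r = 0.938). Genes are not independent replicates, so these values only describe the libraries. Of all tested genes, 11.7% were higher and 12.7% lower in both knockout libraries than in both wild-type libraries.

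Kdm2a RNA itself gave no sign of loss: wild type had 2899 and 3554 counts, and the knockout-labelled libraries had 3710 and 4753. Means were 168 ± 23.2 and 228 ± 47.7 CPM (counts relative to the library total scaled by TMM factors; SD, n = 2), a log2 fold change of 0.44 (SE 0.24; edgeR quasi-likelihood adjusted p = 1.00). The counts thus do not check the label, and every direction below rests on it.

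Foxp4 was the member with the most RNA and the widest gap between the groups. The gene (Entrez 74123) spans 57500 bases on the minus strand of GRCm38.p6 chromosome 17, chr17:47867133-47924632. Wild type 1 and 2 had 2559 and 2135 counts, and knockout 1 and 2 had 4200 and 4102. Both knockout libraries lay above both wild-type libraries, and the 2 knockout values nearly coincided. In CPM the libraries had 134 and 111 against 219 and 226, with means of 122 ± 16.3 and 222 ± 4.30 (SD, n = 2). This was a 1.82-fold higher level, a log2 fold change of 0.86 (SE 0.22). Replicates differed by 0.27 log2 between the wild-type libraries and 0.04 between the others, where genes of at least 5 CPM had median absolute differences of 0.30 and 0.33. With any 1 library left out the log2 fold change was 0.74 to 1.01. In these bulk samples more cells with Foxp4 RNA and more Foxp4 RNA per cell cannot be told apart.

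Foxp1 was abundant in both groups, which overlapped. The gene (Entrez 108655) covers 597405 bases of chromosome 6, chr6:98925342-99522746 on the minus strand, and has 41 RefSeq transcripts. Counts were 1396 and 1999 in wild type and 1852 and 2089 in the libraries labelled knockout. Wild type 1 was the lowest of the 4, and knockout 1 lay below wild type 2. Means were 88.3 ± 21.7 and 106 ± 12.8 CPM (SD, n = 2). The log2 fold change of 0.26 (SE 0.26) was smaller than the 0.51 log2 between the wild-type libraries. It was 0.03 without wild type 1, 0.13 without knockout 2 and 0.54 without wild type 2. Counts per gene do not separate the stem cell form of Foxp1 from its other transcripts.

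Foxp3 was low, and its 2 wild-type libraries were almost identical. The gene (Entrez 20371) lies on the plus strand of the X chromosome, chrX:7579676-7595243. Counts were 113 and 114 in wild type and 131 and 171 in the libraries labelled knockout. Exact Poisson 95% intervals, which cover counting error only, were 93.1 to 136 and 94.0 to 137 in wild type and 110 to 155 and 146 to 199 in the others. Only the knockout 2 interval lay above both wild-type intervals. Means were 5.91 ± 0.0046 and 8.12 ± 1.81 CPM (SD, n = 2), a log2 fold change of 0.46 (SE 0.41), which was 0.22 without knockout 2 and 0.67 without knockout 1. The gap of 1 count between the wild-type libraries was smaller than counting error, so their SD understates the spread of a gene at this depth.

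Foxp2 was at the limit of detection. The gene (Entrez 114142) lies at chr6:14901349-15441977 on the plus strand. It had 0 counts in both wild-type libraries and 1 and 2 counts in the libraries labelled knockout. The upper limit for a library with no count was set at 3 counts (0.156 to 0.157 CPM in wild type). All 4 libraries were under this limit, and no fold was computed.

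**Figure D1:**
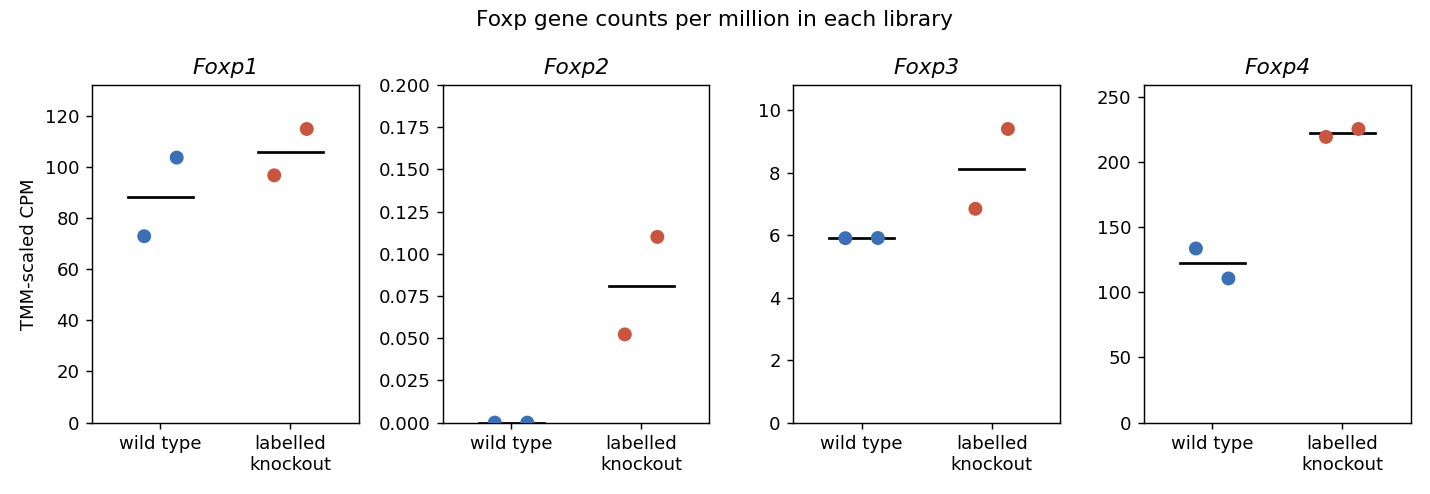
TMM-scaled CPM (vertical axes, each starting at 0 with its own scale) of the 4 Foxp genes in 2 wild-type and 2 knockout-labelled libraries; points are libraries and lines are group means. Foxp4 and Foxp3 do not overlap between groups, Foxp1 overlaps, and the Foxp2 values stand for 0 to 2 counts.

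Of the 3 members tested, edgeR called 0, against 0% of all tested genes, and 2, Foxp3 and Foxp4, were higher in both knockout libraries, against 11.7% of all tested genes. None of the 3 was lower in both, against 12.7%. Since the same contrast chose the family, nothing is read from these counts.

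**Figure D2:**
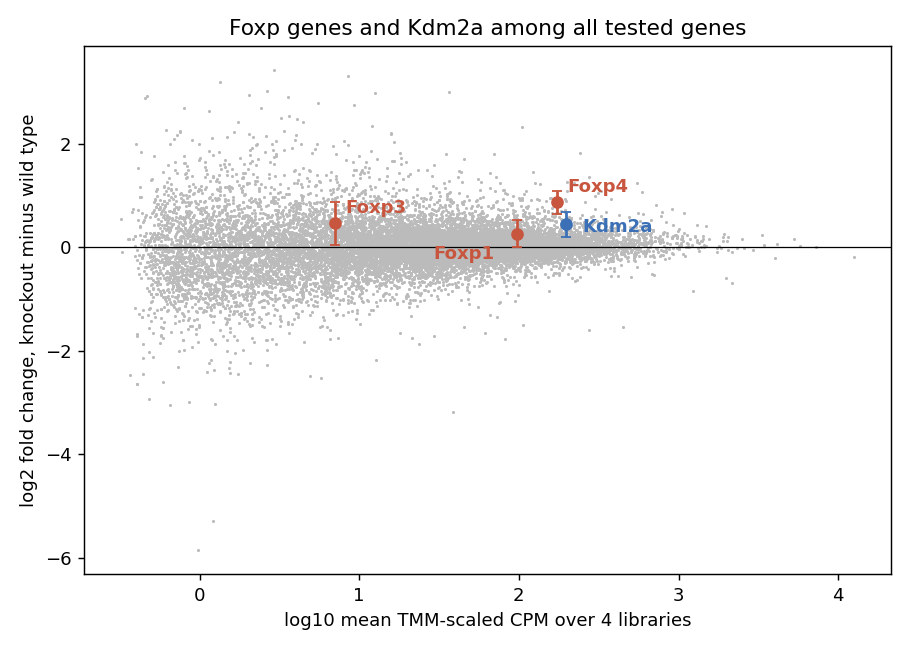
Log2 fold change (knockout minus wild type, vertical axis) against log10 mean CPM over 4 libraries (horizontal axis) for the 14194 tested genes in grey, with the 3 tested Foxp genes in red and Kdm2a in blue; bars are standard errors. Foxp4 lies at 0.86, rank 1076 by absolute log2 fold change among tested genes of all levels. Since the family was chosen by this contrast, nothing is read from that place. Foxp1, Foxp3 and Kdm2a lie nearer 0, within the cloud.

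Levels of different genes were compared per length, as CPM per kilobase of exon (RPKM). Foxp4 had 33.1 and 27.4 RPKM in wild type and means of 30.3 ± 4.03 and 55.1 ± 1.06 in the groups (SD, n = 2). Foxp1 had 11.9 ± 2.92 and 14.2 ± 1.72 RPKM, and Foxp3 1.5 ± 0.0012 and 2.06 ± 0.459. The order Foxp4, Foxp1, Foxp3, Foxp2 was the same in every library, and no neighbouring pair in it overlapped. Among 13520 tested genes with a length, mean RPKM placed Foxp4 at percentile 86.5, Foxp1 at 60.3 and Foxp3 at 22.0. Lengths over all GENCODE exons lowered the mean RPKM from 42.7 to 35.0 in Foxp4, from 13.0 to 7.06 in Foxp1 and from 1.78 to 1.53 in Foxp3, with the order kept.

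Foxp RNA in these cells was thus mostly Foxp4. Its share of the summed RPKM of the 4 genes was 74.6% and 64.0% in wild type and 78.7% and 75.8% in the libraries labelled knockout. Foxp1 made up 22.1%, 32.5%, 18.8% and 20.9% in the same order, and Foxp3 2.52% to 3.51%. The sum was 43.6 ± 1.11 RPKM in wild type and 71.4 ± 3.25 in the libraries labelled knockout (SD, n = 2), with most of the difference in Foxp4. The ratio of Foxp4 to Foxp1 counts, which no scaling of libraries alters, was 1.83 and 1.07 in wild type and 2.27 and 1.96 in the others. It was higher in both knockout libraries, but the gap between knockout 2 and wild type 1 was smaller than that between the wild-type libraries.

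Foxp3 and the gene across from it, Ccdc22, had nearly the same profile. Ccdc22, a subunit of the CCC complex in endosomal sorting, lies at chrX:7593809-7605420 on the minus strand and shares 590 exonic bases with Foxp3. Its counts were 443 and 447 in wild type and 538 and 677 in the other group, and its log2 fold change was 0.50 (SE 0.28). The ratio of Ccdc22 to Foxp3 counts stayed between 3.92 and 4.11 in the 4 libraries. The strand setting of the counting is not given in the sources used here, so reads in the shared exons cannot be told apart, and the part of Ccdc22 in the Foxp3 values was not tested. Flicr, which overlaps Foxp3 on its own strand, had 25, 34, 24 and 38 counts (log2 fold change 0.12, SE 0.60), without separation of the groups. The nearest gene on the other side, Ppp1r3f, which does not overlap Foxp3 in RefSeq but shares 217 words with its GENCODE transcripts, had 88, 104, 66 and 84 counts (log2 fold change -0.31, SE 0.46).

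**Figure D3:**
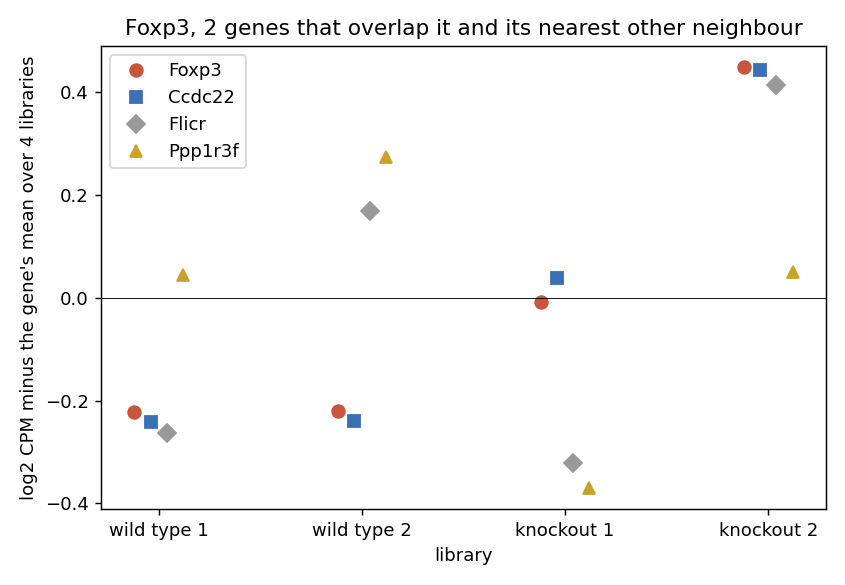
Log2 CPM of each gene minus its own mean over the 4 libraries (vertical axis) by library (horizontal axis) for Foxp3, Ccdc22, Flicr and Ppp1r3f. Foxp3 and Ccdc22 lie close together in every library, while Flicr and Ppp1r3f are low in knockout 1.

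Markers of the cells where Foxp3 is best known were in part absent and in part detected. Of 11 T cell and lymphoid markers in the table, 5 were at or under 3 counts in every library: Cd3g and Ctla4 had 0 counts in every library, and Ptprc, Il2ra and Cd5 had at most 1 count in any library. The summed level of the 11 markers was 25.2 and 31.2 CPM in wild type and 27.5 and 36.4 CPM in the libraries labelled knockout. Most of it came from the kinases Lck and Zap70, with means of 18.9 and 7.82 CPM over the 4 libraries. Cd3e, a subunit of the T cell receptor complex, had 33, 29, 27 and 63 counts. The part of such transcripts in the Foxp3 values was not tested. Lck, with a log2 fold change of 0.36 (SE 0.35), and Zap70, at -0.30 (SE 0.38), differed in direction. Of 4 tested members 3 were positive and 0 were higher in both knockout libraries (11.7% of all tested genes were). Of the 4, 1 (Zap70) was lower in both (12.7% were), and 0 were called (0% were). The median of 0.41 was -0.19 without knockout 2 and 0.11 without wild type 1.

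Genes with the most similar profile were taken by the root-mean-square difference of centred log2 CPM over the 4 libraries, among 10777 other genes of at least 5 CPM. For Foxp4 the nearest were Set, a histone chaperone (0.084), H1f0, a linker histone (0.085), and Zbtb12, a zinc finger gene (0.095), and 4 genes lay within 0.1. Set had 723 and 646 CPM in wild type and 1087 and 1192 in the libraries labelled knockout. For Foxp1, 384 genes lay within 0.1, with Dclre1b, Fbxo9 and Mfsd5 the nearest (0.010 to 0.015). For Foxp3, 162 lay within 0.1, with Dnajb1, Ccdc22 and Abcc4 the nearest (0.015 to 0.028). The likeness rests on 4 libraries that share their scaling. The number of genes within 0.1 is smaller for a gene that varies more between libraries, so it is no measure of how particular a profile is.

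The RefSeq start of Foxp4 is rich in CG pairs, and those of Foxp3 are not. GENCODE places the first base of Foxp3 further upstream, at chrX:7573644, and that start was not examined. RefSeq start sites of GRCm38.p6 gave 250-base windows upstream of each start for Foxp1 (3 windows), Foxp3 (2) and Foxp4 (1). Windows of Foxp4 and Foxp3, the members whose groups did not overlap, are shown with each CG in capitals. The Foxp4 window, chr17:47924633-47924882 on the minus strand, holds 27 CG and 69.6% G or C. As many or more CG were found in 8.56% of 32851 promoters.
Foxp4: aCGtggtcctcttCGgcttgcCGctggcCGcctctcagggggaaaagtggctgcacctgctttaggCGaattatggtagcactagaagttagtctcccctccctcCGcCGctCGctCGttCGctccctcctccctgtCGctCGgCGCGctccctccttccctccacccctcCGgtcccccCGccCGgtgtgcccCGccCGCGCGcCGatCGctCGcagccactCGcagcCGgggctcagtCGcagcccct
Foxp3: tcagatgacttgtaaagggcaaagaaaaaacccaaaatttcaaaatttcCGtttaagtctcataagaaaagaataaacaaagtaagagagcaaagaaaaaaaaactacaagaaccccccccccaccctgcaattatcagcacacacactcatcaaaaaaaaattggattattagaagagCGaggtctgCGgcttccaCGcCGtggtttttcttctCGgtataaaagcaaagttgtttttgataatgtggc

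The Foxp3 window shown, chrX:7579426-7579675 on the plus strand, holds 6 CG, equal to the median of all promoters, and the other Foxp3 window holds 7. The Foxp1 windows differ among themselves, with 34, 3 and 11 CG, so only the first is as rich as that of Foxp4. The forkhead motif TGTTTAC, searched on both strands, was in none of the 6 windows (3.17% of all promoters), and TGTTTAT was in 2 Foxp1 windows and the Foxp3 window shown (4.16% of all promoters). Methylation and binding at these starts were not measured here.

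The genes around Foxp4 had log2 fold changes on both sides of 0, from -1.05 to 1.34. Of 33 genes within 500 kb, 21 were tested, 10 with a positive log2 fold change, and the median was -0.009 beside 0.003 over all tested genes. Of the 21, 2 were higher in both knockout libraries, beside 11.7% of all tested genes, and 2 were lower in both, beside 12.7%. None was called, beside 0% of all tested genes. The nearest, Mdfi, an inhibitor of myogenic factors, had 381, 151, 301 and 211 counts (log2 fold change -0.02, SE 0.50). On the other side, 1700122O11Rik had at most 1 count in any library. Tfeb, a regulator of lysosomal genes, had 973, 935, 1010 and 2209 counts, a log2 fold change of 0.81 (SE 0.39), with both knockout libraries above both wild-type libraries and knockout 2 the highest. Apobec2, a relative of the cytidine deaminases, had the largest log2 fold change around Foxp4, 1.34 (SE 0.70), with 59, 43, 52 and 196 counts and overlapping groups. Both were named after their values were seen.

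Around Foxp1 the 3 tested genes all had negative log2 fold changes, opposite in sign to Foxp1. By CPM all 3 count as lower in both knockout libraries, beside 12.7% of all tested genes, but Gpr27 had 23 counts in both wild type 1 and knockout 1, which is a tie. Eif4e3, a cap-binding protein, had 116 and 87 counts in wild type and 52 and 19 in the libraries labelled knockout (log2 fold change -1.49, SE 0.61, n = 2 per group, not called). Gpr27 and Prok2 were at 12 to 28 counts, with -0.31 and -0.21. Beside Foxp2, Ppp1r3a had 0 counts throughout and Mdfic, a relative of Mdfi, had 56, 123, 44 and 34 (log2 fold change -1.16, SE 0.57). Around Foxp3, 16 of 28 tested genes were positive, 6 were higher in both knockout libraries (11.7% of all tested genes were), 0 were lower in both (12.7% were), and the median was 0.11. The nearest gene downstream that does not overlap Foxp3, Cacna1f, had 1 or 2 counts.

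**Figure D4:**
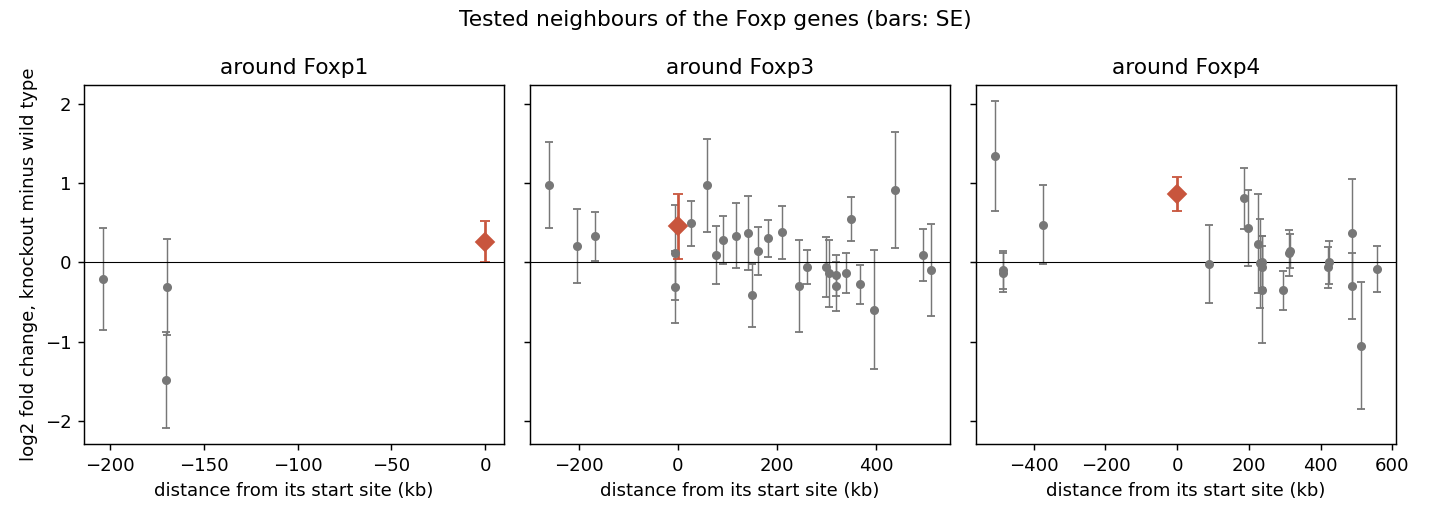
Log2 fold change (knockout minus wild type, vertical axis) of tested genes within 500 kb of Foxp1, Foxp3 and Foxp4 (grey) against the distance of their start from the start site of the Foxp gene (kb, horizontal axis, positive downstream), with the Foxp gene as a red diamond; bars are standard errors. The neighbours of Foxp4 scatter on both sides of 0, and the 3 neighbours of Foxp1 lie below 0.

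Other forkhead genes did not share a direction. Of 41 on the list, 40 were in the table and 22 were tested. Of these 15 were positive and 7 negative, 0 were higher in both knockout libraries, beside 11.7% of all tested genes. By CPM 2 were lower in both, beside 12.7%, Foxr1 and Foxa3, but Foxa3 had 28 counts in both wild type 1 and knockout 1, which is a tie. The median log2 fold change was 0.13, and the wild-type libraries themselves had list medians of 0.16 and -0.16 on the centred log2 scale. The most abundant, Foxm1, a driver of mitotic genes, had 122, 149, 132 and 145 CPM (log2 fold change 0.03, SE 0.22). Foxn3 (0.59, SE 0.39) and Foxn4 (0.53, SE 0.59) had the largest differences among members of at least 5 CPM, and neither separated the groups. Without wild type 1 the list's median was 0.40, without wild type 2 it was 0.03, and without knockout 2 it was -0.03.

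**Figure D5:**
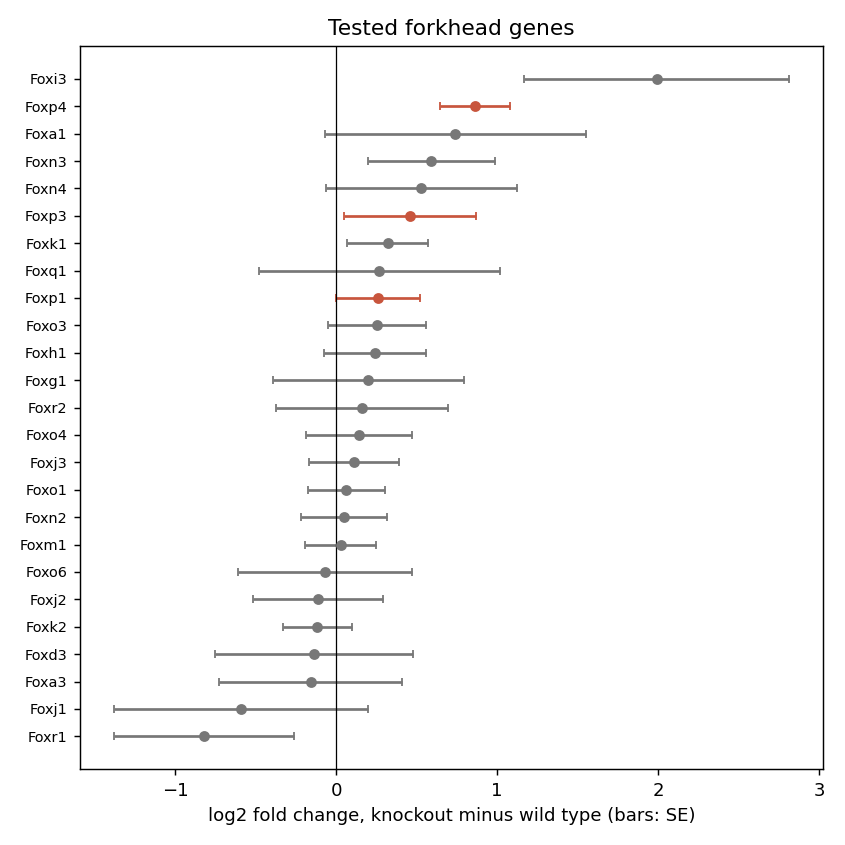
Log2 fold change (knockout minus wild type, horizontal axis) of the 25 tested forkhead genes, Foxp genes in red and others in grey; bars are standard errors. Foxp4 has the narrowest error bar among the genes above 0.5, but the others there, such as Foxi3, have lower mean CPM. The bars of Foxk2 (SE 0.21) and Foxm1 (SE 0.22), which lie nearer 0, have a like width. Foxp4 was chosen by this contrast, so nothing is read from its place or bar.

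Partners and corepressors of FOXP proteins were nearly all expressed and centred on 0. Of 27 genes 24 were tested, 14 positive and 10 negative, with a median log2 fold change of 0.02. Of the 24, 0 were called, beside 0% of all tested genes. Ctbp1, Mbd3 and Kat5 were higher in both knockout libraries (3 of 24, beside 11.7% of all tested genes), and Mta3 and Hdac3 were lower in both (2 of 24, beside 12.7%). The median was -0.05 without knockout 1 and 0.05 without knockout 2. Ctbp1, the corepressor named above, had 107 and 75.4 CPM in wild type and 113 and 151 in the libraries labelled knockout (log2 fold change 0.54, SE 0.27). Knockout 1 was close to wild type 1, and knockout 2 was the highest. Chd4, the NuRD helicase, was the most abundant at 845, 654, 864 and 777 CPM (0.13, SE 0.22).

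The genes linked to the stem cell form of Foxp1 showed no common direction. MBNL proteins are known to hold back that splice form, and Pou5f1, Nanog, Nr5a2, Gdf3 and Tdgf1 are genes that it is known to favour. All 8 were tested, 2 positive and 6 negative. None was higher in both knockout libraries, beside 11.7% of all tested genes, or lower in both, beside 12.7%. Of the 8, 0 were called, beside 0% of all tested genes. The median was -0.08. Without wild type 2 this median was 0.28, and it was 0.02 without knockout 1, -0.02 without wild type 1 and -0.12 without knockout 2. Mbnl1 had a log2 fold change of -0.31 (SE 0.44), Mbnl2 of -0.03 (SE 0.31) and Mbnl3 of -0.12 (SE 0.49). Among the pluripotency genes, Pou5f1 had 0.09 (SE 0.22), Nr5a2 -0.002 (SE 0.24) and Tdgf1 -0.17 (SE 0.29). Nanog counts were 7332, 14682, 10021 and 7938, so the wild-type libraries spanned both knockout values (-0.25, SE 0.33). Gdf3 had 1161, 1679, 1315 and 2889 counts, high in knockout 2 (0.62, SE 0.41).

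Genes listed as FOXP targets in other tissues were mostly silent, with 9 of 16 at or under 3 counts in every library and 6 tested. Of these 4 were positive, with a median log2 fold change of 0.50 that was 0.04 without knockout 2. Vldlr, a reelin receptor, had 92, 45, 81 and 279 counts (1.45, SE 0.70), and Cdh2, N-cadherin, had 61, 54, 50 and 239 (1.39, SE 0.74). Both were high in knockout 2 alone. Jag1, a Notch ligand and the most abundant of the list, was higher in both knockout libraries, with 537, 316, 632 and 584 counts (0.55, SE 0.34), while Met, a receptor kinase, was lower in both (-0.59, SE 0.49). These are 1 of 6 each, beside 11.7% and 12.7% of all tested genes. No target was called, beside 0% of all tested genes.

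The libraries had the marker profile of embryonic stem cells, with all 12 such markers tested and summed levels of 6636 to 8037 CPM. Their median log2 fold change was -0.16, with 5 positive and 7 negative, but it was 0.10 without wild type 1, -0.04 without wild type 2, -0.37 without knockout 1 and 0.13 without knockout 2. Esrrb, Tfcp2l1 and Tbx3 were higher in both knockout libraries (3 of 12, beside 11.7% of all tested genes), and Sox2 was lower in both (1 of 12, beside 12.7%). Tdgf1 was the most abundant (1387, 940, 1244 and 831 CPM), and Tbx3 (0.41, SE 0.23) and Fgf4 (-0.29, SE 0.24) differed most. Markers of other cell types were summed because Foxp1 and Foxp4 are also expressed in differentiating cells. Neural markers summed to 524 and 509 CPM in wild type and 556 and 430 in the libraries labelled knockout, with Stmn2 taking most of it, 7 of 8 positive and a median of 0.29, which was 0.44 without wild type 1, 0.46 without knockout 1 and 0.18 without knockout 2. Of all tested genes 50.5% were positive. Sox1 was higher in both knockout libraries and Stmn2 lower in both, 1 of 8 each, beside 11.7% and 12.7% of all tested genes. Pax6 (0.83, SE 0.50), Map2 (0.78, SE 0.44), Sox1, Nes and Tubb3 had their highest CPM in knockout 2. By contrast, Stmn2 (-0.27, SE 0.24), Neurod1 (0.09, SE 1.02) and Elavl3 (0.001, SE 0.39) had their lowest CPM in that library. Endoderm markers summed to 178, 124, 139 and 199 CPM, with 6 of 8 positive and a median of 0.30, which was 0.64 without wild type 1, -0.09 without wild type 2 and 0.17 without knockout 2. Lama1 (0.32, SE 0.29) and Col4a1 (-0.21, SE 0.29) led them.

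Mesoderm markers summed to 78.1, 55.3, 53.1 and 55.9 CPM, with 4 of 7 positive and a median of 0.05, Pdgfrb (-0.74, SE 0.59) and Tek (-0.38, SE 0.35) among them. This median was 0.13 without wild type 1, -0.10 without wild type 2, 0.55 without knockout 1 and -0.36 without knockout 2. Fibroblast markers summed to 300, 311, 302 and 625 CPM, with 2 of 4 positive and a median of 0.05, which was 0.34 without wild type 1, -0.11 without wild type 2 and -0.16 without knockout 1. Vim, an intermediate filament gene also expressed in stem cells, made up 252, 288, 263 and 602 CPM of this (0.68, SE 0.38), and Col1a1 had -0.84 (SE 0.62). None of these lists had a gene called, beside 0% of all tested genes. The part of other cell types in the Foxp values was not tested.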

How the data were processed

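The authors deposited whole-number read counts per gene, without normalization. HISAT2, featureCounts and the mm10 build are named, per the submitters' processing notes; versions, annotation and strand setting were not given in the sources used here. Entrez numbers were matched to RefSeq symbols of GRCm38.p6 (24061 of 24116 genes; the other 55 held 0.0334% to 0.0439% of counts). Counts were filtered with filterByExpr, scaled by TMM and tested with edgeR 4.0.16 (quasi-likelihood, Benjamini-Hochberg over 14194 genes, threshold 0.05) in R 4.3.3, after the test was tried on simulated data. Each SE of a log2 fold change is its absolute value divided by the square root of the quasi-likelihood F statistic. It is thus not the spread of the 2 libraries of a group alone. A gene was called separated when the CPM ranges of the groups did not overlap. Levels per length used exons of GENCODE transcripts paired with RefSeq, and 50-base words came from GENCODE transcripts. Limits of 3 counts and intervals cover counting error only, since PCR copies are counted as reads.

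The members and gene lists were chosen with earlier results of these data known. Named genes were the members, Kdm2a, the 3 closest profiles, nearest and overlapping genes, every member of the Foxp1 circuit, and per list the most abundant gene and the 2 with the largest log2 fold change at 5 CPM or more. Some items that this rule covers are not reported here. Other genes are named because they separated the groups or were chosen after their values were seen. Alternatives were other scalings (RLE, upper quartile, totals), 2 filters, DESeq2 1.42.0, limma-voom (limma 3.58.1), a replicate block and each library left out.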

Additional observations from a re-analysis of the deposited data

How the results depend on the processing

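The Foxp1, Foxp3, Foxp4 and Kdm2a log2 fold changes kept a positive sign under all 12 alternatives, at 0.03 to 0.54, 0.22 to 0.67, 0.74 to 1.01 and 0.21 to 0.64. For Foxp3, Foxp4 and Kdm2a, whose groups did not overlap, leaving out a library could hardly reverse the sign. Of all tested genes, edgeR called 0 under the other scalings and filters, as did limma-voom. DESeq2 called 2, and leaving out 1 library gave 0 to 91, with 91 without knockout 1 (75 higher, 16 lower) and 8 without knockout 2; no Foxp gene was among the calls. In those fits the lone library is assumed to vary like the pair of the other group. With the replicate number as a block, 0 genes were called, 735 had an unadjusted p under 0.05, and Foxp1, Foxp3, Foxp4 and Kdm2a had 0.28, 0.44, 0.87 and 0.43; deviations of same-numbered libraries correlated at 0.347 over 14194 genes, but with 2 pairs the numbers were not taken as a pairing. Separated members numbered 2 or 3 of 3 with a library left out, against 25.4% to 36.9% of all genes (alternative chosen after seeing the data, as was the second exon length). A separation cannot be undone by leaving out a library, so this number could only stay or rise, and nothing is read from it. Of 70 alternative list medians 53 moved by less than the spread between libraries and 17 by more. All 17 came from leaving out a library, and none from the other scalings, which shift all genes nearly alike. Depth limits Foxp2, at or under 3 counts, and Foxp3. The causes of these changes were not tested.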

Other observations

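Some forkhead genes outside the Foxp family varied between libraries more than Foxp4 did, and are given as values chosen after they were seen. Foxi3 had 42, 25 and 41 counts in wild type 1, wild type 2 and knockout 1 and 214 in knockout 2, a log2 fold change of 1.99 (SE 0.82; edgeR quasi-likelihood adjusted p = 1.00). Foxa2, a regulator of endoderm, had at most 1 count in each of those 3 libraries and 59 in knockout 2, and did not pass the filter on low counts. Foxd3, a stem cell and neural crest factor, had 220 and 989 counts in wild type 1 and 2, and 478 and 584 in knockout 1 and 2. In these 3 genes the spread within a group exceeded the gap between group means or came from 1 library, and the cause was not tested.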
